A study of Mus musculus with 16 samples.

Results

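The genes described here are 33 mouse genes of sterol and fatty acid synthesis, of 22328 genes with a probe on the array. They comprise 17 enzymes of sterol synthesis, 6 genes of sterol sensing and transport, and 10 genes of fatty acid synthesis, elongation and desaturation. Members were picked by gene symbol or older alias among the non-control spots, and the brightest of a gene's probes stood for the gene. All 33 had a probe, and 14 had several.

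The cells were T lymphocytes from lymph nodes of OT-1het, Rag-/- mice, either WT or Lck-/-. OT-1 is a transgenic T cell receptor that recognises the ovalbumin peptide SIINFEKL, loss of Rag prevents other antigen receptors from being made, and Lck is the kinase that starts signalling from the receptor. Both genotypes therefore carried the receptor and the Rag deletion. Both were cultured with 100 nM of the peptide for 24 h and then given cycloheximide, which stops ribosomes on the mRNA, at 100 µg/ml for 10 min. Age, sex and the promoter of the receptor transgene are not given in the sources used here, and the series title adds OFF to Lck-/- without explaining it. Lysates were spun through sucrose of 10 to 50%. The sub-polysomal pool held fractions 1 to 5, and the polysomal pool held fractions 6 to 10. From each pool 1.5 µl was labelled, a volume and not a mass of RNA. Both pools of an extract were hybridised to the same 2-colour array and again with the dyes swapped, so the 4 WT and 4 Lck-/- extracts gave 16 arrays on 2 slides, with 1 array of every extract on each slide. The extracts are labelled as biological replicates. Separate mice or cultures are not stated for them, so p-values measure the spread between these extracts.

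Cholesterol is built from acetyl-CoA through mevalonate, isoprenoid diphosphates, squalene and lanosterol. Its mRNAs are switched on together by the membrane-bound factor SREBP-2 when sterols are low, while SREBP-1 acts more on the genes of fatty acid synthesis. Fatty acids are made by carboxylation of acetyl-CoA and repeated addition of malonyl-CoA units, then lengthened by elongases and given double bonds by desaturases. Activated T cells are known to turn on both routes as they grow and divide.

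A level is the normalised log2 intensity of a gene's probe in the polysomal pool, in the sub-polysomal pool, or as the mean of both pools of an extract. The ratio is the polysomal minus the sub-polysomal log2 intensity of the same probe, relative to the typical mRNA of the array, which lies near 0. Differences are Lck-/- minus WT in log2 units with the moderated SE and the adjusted p of limma over all genes tested, and a gene passed below 0.05. A gene was tested for a level when its probe was well above background on at least 6 of 8 arrays of either genotype (in both pools for the mean), and for the ratio when it passed in both pools of both genotypes. By this filter 33 members were tested in the polysomal pool, 29 in the sub-polysomal pool, 29 in the mean of both and 26 in the ratio. A filter that accepts a gene through its bright genotype favours genes that differ, so counts over tested members are not counts over all members.

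Lck was lower in every Lck-/- extract than in any WT extract. Its mean log2 intensity was 15.08, 15.16, 14.72 and 15.17 in the WT extracts and 14.18, 14.36, 14.04 and 14.14 in the Lck-/- extracts, and the genotypes differed by -0.85 (SE 0.14, limma adjusted p = 0.00314). The labels do not say which part of Lck is deleted or where the probe lies relative to it, and the probe was still well above background in the Lck-/- extracts. Arrays had 12531 to 50776 probes well above background per channel, and no member had a saturated spot. All 10 CD8 T cell marker genes were well above background in both pools on all 16 arrays. Of 10 adipocyte markers, which stand for the fat around lymph nodes, none was detected on all arrays and none met the filter, and their summed level spanned 9.77 to 9.85 in WT and 9.85 to 10.00 in Lck-/-. The summed level of 5 NK cell markers was 9.99 to 10.58 in WT and 10.99 to 12.37 in Lck-/-, with Eomes the single one tested. Most of that sum is Eomes, with mean log2 intensities of 9.56 in WT and 11.63 in Lck-/-. The other NK markers lay at 6.65 to 7.13 in WT and 6.88 to 7.63 in Lck-/-. Dendritic cell and macrophage markers spanned 11.65 to 12.10 in WT and 11.42 to 11.79 in Lck-/-, CD4 T cell markers 10.76 to 11.43 and 10.40 to 10.62, and red cell markers 8.31 to 8.73 and 8.57 to 10.53. Single genes weigh on these sums as well. A sum here, that of the NK cell markers included, cannot tell cell number from a change in a single gene. Ctla4 went from 10.46 in WT to 9.31 in Lck-/-, while Cd4 had 9.32 and 9.23 (limma adjusted p = 0.733). H2-Ab1 went from 10.87 to 9.89, while Cd74 (8.60 and 8.39) and Csf1r (9.63 and 9.91) did not pass. The part of other cells in the results below was not tested.

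WT replicates 1 and 2 had dye-swap arrays that went against their labels. In the ratio, the 2 arrays of each of these extracts correlated at -0.83 and -0.81 in their deviations from the WT mean, against 0.46 to 0.84 for the arrays of the other 6 extracts, while crossing the swaps gave 0.87 and 0.94. Values of these 2 extracts may therefore each hold part of the other. That would make them too alike, the spread between WT extracts too small and p-values too low. The p-values given per gene are from the arrays as labelled, unless stated otherwise. Of all genes 9.24% were called lower in the polysomal pool as labelled, and 4.73% with the swaps crossed. The counts of the 33 genes called are also given with the swaps crossed and with both extracts left out.

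Many enzymes of sterol synthesis were lower in Lck-/- cells. In the mean of both pools 8 of 16 tested sterol enzymes (50%) passed as lower and 0 as higher, with a median difference of -0.48, beside 11.2% of all 9073 genes called lower, 10.2% called higher and a median of 0.04. Of the 29 members tested 23 lay below 0, against 45.1% of all genes. The 8 were Pmvk, Mvd, Fdps, Fdft1, Lss, Cyp51, Tm7sf2 and Dhcr7, which stand at steps from phosphomevalonate to the final reductions of the sterol ring. In the polysomal pool 9 of 17 passed as lower, the same 8 and Nsdhl, beside 9.24% of all genes called lower and 5.98% called higher, and 28 of 33 members lay below 0, against 50% of all genes. In the sub-polysomal pool 7 of 16 passed as lower, beside 10.8% of all genes, and 20 of 29 members lay below 0, against 45.2% of all genes. Its sterol enzymes had a median of -0.37, which became 0.06 when arrays were centred on the median of their spots and all genes moved to 0.37. Over the genes that met the array minimum in both genotypes, a count added after the data were seen, 7 of 14 sterol enzymes were lower in the mean, 8 of 16 in the polysomal pool and 7 of 15 in the sub-polysomal pool. Of all genes under the same filter 10.2%, 8.54% and 11.1% were called lower, in the same order. These are bulk RNA pools, in which fewer cells of a type and less RNA per cell cannot be told apart.

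**Figure D1:**
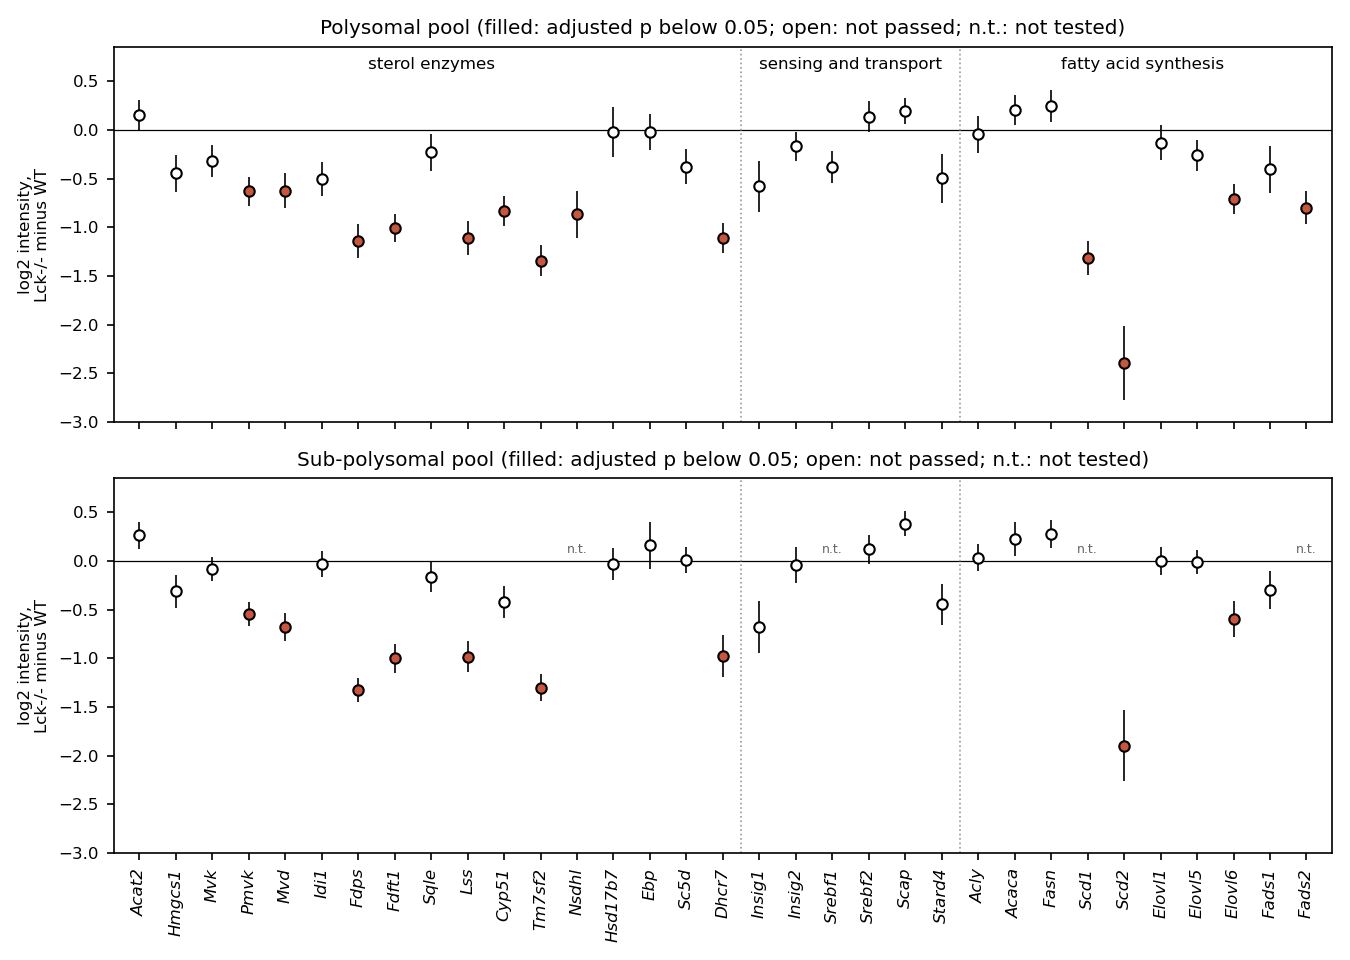
Difference in log2 intensity between Lck-/- and WT for each gene in the polysomal pool (top) and the sub-polysomal pool (bottom), with the moderated SE as bars. Filled points passed the adjusted p threshold, open points did not, and n.t. marks genes below the detection filter; every filled point lies below 0, and Scd2 lies lowest in both pools at -2.40 and -1.90.

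Of the enzymes that turn mevalonate into isoprenoid units, Pmvk and Mvd passed. Pmvk, phosphomevalonate kinase (probe at chr3:89272867-89272926, plus strand, mm9), had mean log2 intensities of 12.97, 12.84, 13.04 and 12.71 in WT and 12.39, 12.32, 12.18 and 12.31 in Lck-/-. Its difference was -0.59 (SE 0.12, limma adjusted p = 0.00811). Mvd, the decarboxylase that makes isopentenyl diphosphate, had 10.11, 9.98, 9.82 and 9.73 in WT and 9.43, 9.41, 8.94 and 9.26 in Lck-/-, and differed by -0.65 (SE 0.15, limma adjusted p = 0.0116). For both genes the genotypes did not overlap, which held for 26.4% of all genes tested.

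Steps upstream of and beside these did not pass. Hmgcs1, which makes the HMG-CoA from which mevalonate is formed, differed by -0.38 (SE 0.16, limma adjusted p = 0.113), and Mvk, mevalonate kinase, by -0.20 (SE 0.13). Idi1, the isomerase of isopentenyl diphosphate, differed by -0.27 (SE 0.14) in the mean of both pools, with -0.50 in the polysomal pool (limma adjusted p = 0.0693) and -0.03 in the sub-polysomal pool. Acat2, a cytosolic thiolase that joins acetyl-CoA units, was a dim probe that missed the ratio filter. Its mean log2 intensities were 7.84, 7.98, 7.60 and 7.80 in WT and 7.98, 8.15, 7.96 and 7.95 in Lck-/-, and the overlapping groups differed by 0.21 (SE 0.12).

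Fdps and Fdft1, at the steps from isoprenoid units to squalene, passed with larger differences. Fdps, farnesyl diphosphate synthase (chr3:88897549-88897608, minus strand, mm9), had mean log2 intensities of 12.51, 12.44, 12.91 and 12.49 in WT and 11.51, 11.25, 11.32 and 11.34 in Lck-/-. It was 2.35-fold lower (difference -1.23, SE 0.14, limma adjusted p = 0.000623). Fdft1, squalene synthase (chr14:63765750-63769990, minus strand, mm9), had 10.33, 10.23, 10.25 and 10.08 in WT and 9.38, 9.32, 9.05 and 9.11 in Lck-/-. It was 2.01-fold lower (difference -1.01, SE 0.12, limma adjusted p = 0.000953). In both genes the WT and Lck-/- extracts lay well apart, and the differences were alike in size in both pools, at -1.14 polysomal and -1.32 sub-polysomal for Fdps and -1.01 and -1.0 for Fdft1. Sqle, the epoxidase that acts on squalene next, did not pass, with a difference of -0.20 (SE 0.16).

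Lss, lanosterol synthase (chr10:76015992-76016051, plus strand, mm9), had 9.62, 9.40, 9.53 and 9.47 in WT and 8.78, 8.64, 8.18 and 8.23 in Lck-/-. Its difference was -1.05 (SE 0.15, limma adjusted p = 0.00205), or 2.06-fold lower, with no overlap. Cyp51, the cytochrome that removes a methyl group from lanosterol, had 9.98, 10.00, 9.77 and 9.93 in WT and 9.46, 9.52, 9.0 and 9.18 in Lck-/-, with no overlap. The difference of Cyp51 was -0.63 (SE 0.14, limma adjusted p = 0.0116) in the mean, -0.83 (adjusted p = 0.00603) in the polysomal pool and -0.43 (adjusted p = 0.0889) in the sub-polysomal pool.

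Tm7sf2 is a sterol reductase of the ring. Its mean log2 intensities were 8.78, 9.01, 8.88 and 8.99 in WT (chr19:6062882-6062941, minus strand, mm9) and 7.42, 7.82, 7.60 and 7.54 in Lck-/- (difference -1.32, SE 0.13, limma adjusted p = 0.000303). Its polysomal signal was well above background on 8 of 8 WT arrays and 5 of 8 Lck-/- arrays, so it entered the tests of the mean and the polysomal pool through WT alone. The Lck-/- signal was in part not above background, so no fold is given, and the ratio was not tested. Dhcr7, which reduces dehydrocholesterol to cholesterol (chr7:151033870-151033930, plus strand, mm9), had 8.75, 8.88, 8.82 and 9.0 in WT and 8.20, 8.0, 7.62 and 7.46 in Lck-/-. It was 2.06-fold lower (difference -1.04, SE 0.17, limma adjusted p = 0.00289), and its Lck-/- extracts, all below WT, were spread more widely (SD 0.34) than its WT extracts (SD 0.11).

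Nsdhl, a dehydrogenase that helps to remove methyl groups from the ring, was tested in the polysomal pool alone. There it had 8.39, 8.13, 8.37 and 8.20 in WT and 6.82, 8.16, 7.18 and 7.47 in Lck-/-, and differed by -0.87 (SE 0.24, limma adjusted p = 0.0350). Replicate 2 of Lck-/- lay within the WT range and the other 3 below it. The call was lost on leaving out any WT extract or Lck-/- replicate 3 or 4, with an adjusted p of up to 0.28 over all settings. It was also lost with the swaps crossed, and Nsdhl passed under 10 of 24 settings. The brightest probes of the remaining ring enzymes did not pass in any level. Hsd17b7 differed by -0.03 (SE 0.19), Ebp by 0.07 (SE 0.20) and Sc5d by -0.19 (SE 0.14) in the mean of both pools.

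**Figure D2:**
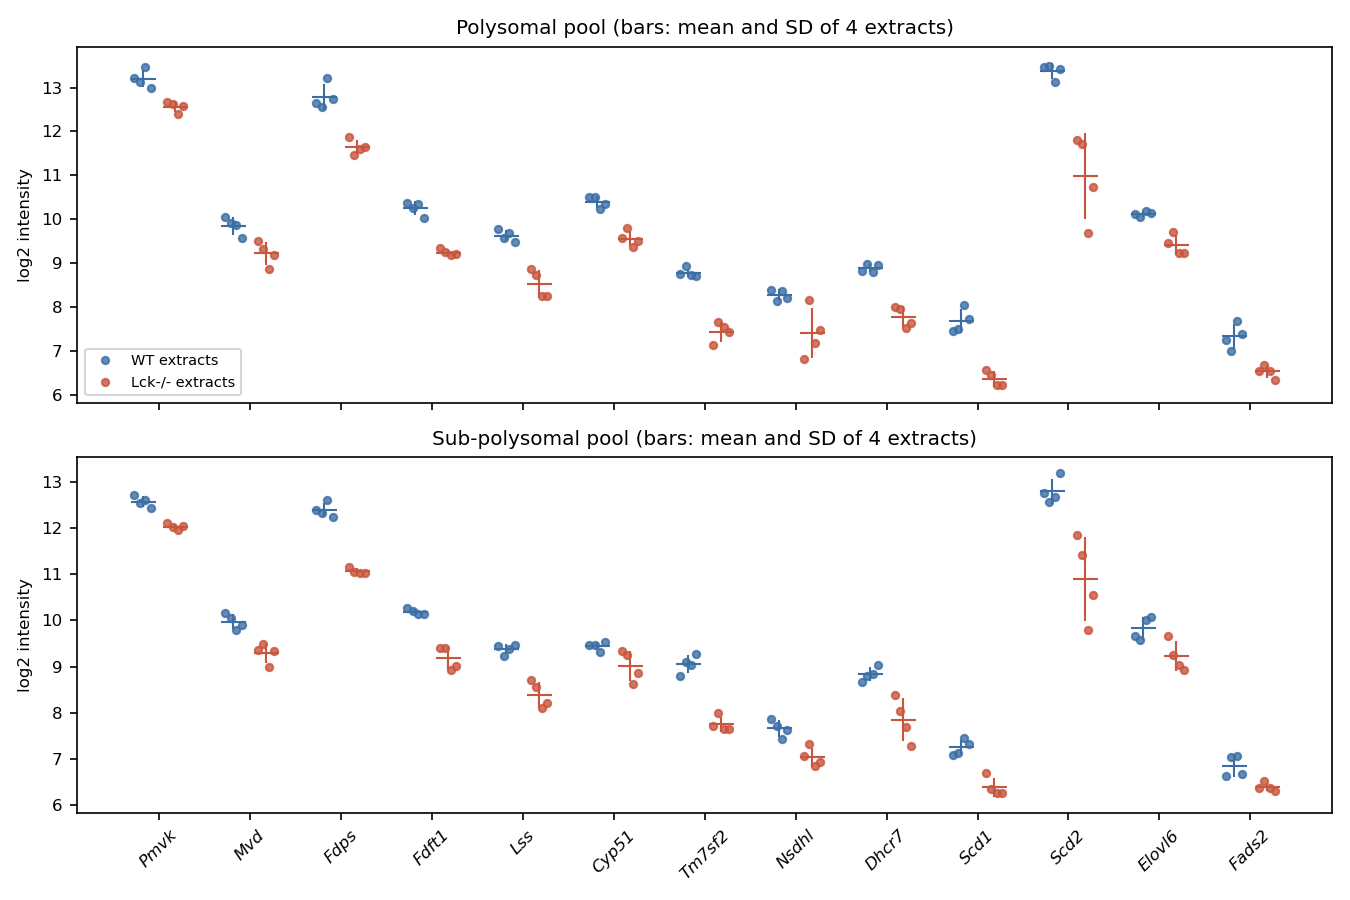
Log2 intensity of the 13 genes that passed in the polysomal pool, the sub-polysomal pool or their mean, in the polysomal pool (top) and the sub-polysomal pool (bottom) of each extract (blue WT, red Lck-/-), with the mean and SD of the 4 extracts of each genotype. These genes were chosen because they passed, so their separation is not a further result. In the polysomal pool Nsdhl alone of the 13 overlaps (23% of all genes tested there do not), and Scd2 has the widest spread among Lck-/- extracts.

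Promoter sequence is shown because the sterol enzymes that passed did so in the same direction. RefSeq windows (GRCm38.p6, 250 bases before to 50 after the start) were matched by symbol for 26 of the 33 genes. Those not matched were Fdps, Fdft1, Sqle, Stard4, Scd1, Scd2 and Fads1. On both strands the windows were searched for TCACNCCAC, a form of the sterol regulatory element, CCAAT, bound by NF-Y, GGGCGG, bound by Sp1, and CACGTG, the E-box. CCAAT was in 21 of the 26 genes (80.8%), and in 13 of the 14 sterol enzymes, against 41.1% of all genes with a window and 43.2% of those tested in the mean of both pools, a reference added after the shares of all genes had been seen. GGGCGG was also in 80.8%, against 38.2% of all genes and 69.4% of those tested. CACGTG was in 23.1%, against 8.09% and 12.6%, and TCACNCCAC in 1 gene, Hmgcs1, against 1.44% of all genes. The stretches of 60 bases below lie before the start on the strand of the gene and hold the CCAAT nearest the start in each of the 6 sterol enzymes called in the mean of both pools that have a window, with the element of Hmgcs1, which did not pass, beside them. Capitals mark a match, with ATTGG being CCAAT on the other strand. Positions are chr3:89454378-89454437 (plus) for Pmvk, chr8:122443423-122443482 (minus) for Mvd, chr10:76531516-76531575 (plus) for Lss, chr5:4104698-4104757 (minus) for Cyp51, chr19:6067865-6067924 (minus) for Tm7sf2, chr7:143830138-143830197 (plus) for Dhcr7 and chr13:119690187-119690246 (plus) for Hmgcs1, all in GRCm38.p6 and not in the mm9 of the probes.
Pmvk: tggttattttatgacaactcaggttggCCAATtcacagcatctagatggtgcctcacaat
Mvd: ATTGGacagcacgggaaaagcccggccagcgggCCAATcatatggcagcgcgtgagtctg
Lss: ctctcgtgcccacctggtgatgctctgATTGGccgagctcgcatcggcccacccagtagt
Cyp51: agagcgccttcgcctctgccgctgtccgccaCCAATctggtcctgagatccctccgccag
Tm7sf2: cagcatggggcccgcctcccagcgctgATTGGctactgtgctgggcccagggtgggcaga
Dhcr7: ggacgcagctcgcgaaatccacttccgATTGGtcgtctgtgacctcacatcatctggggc
Hmgcs1: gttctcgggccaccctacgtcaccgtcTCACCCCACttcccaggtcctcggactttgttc
The match begins 136 bases before the start in Pmvk, 62 in Lss, 49 in Dhcr7, 47 in Tm7sf2, 29 in Cyp51 and 27 in Mvd. Pmvk and Dhcr7 have more than 1 window, each with its own start, and their other windows hold no CCAAT. For these genes the distance is from the start of the window shown. Elovl6, which also passed, has a window without CCAAT. The 26 genes have 35 windows, and a gene counted when any of its windows held the letters. The motif bound by NF-Y was also in windows of Hmgcs1, Mvk, Idi1, Ebp, Sc5d and Hsd17b7, which did not pass in any level. The single sterol enzyme with a window but without this motif did not pass either. Among the sterol enzymes with a window, the motif was found in those that passed and in most of those that did not. Its part in the levels was not tested. A match is a description of sequence, and binding was not measured.

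Among the fatty acid genes the desaturase Scd2 and the elongase Elovl6 passed as lower in each level, and the genes that build the first chain did not pass. In the mean of both pools they were the 2 called lower of 8 tested (25%), beside 11.2% of all genes, with a median difference of -0.10. In the polysomal pool Scd1 and Fads2 passed as well, which made 4 of 10 (40%), beside 9.24% of all genes, with a median of -0.33. Both were tested through WT alone, and over the 8 genes that met the array minimum in both genotypes the count was 2 and the median -0.20. Of all genes under that filter 8.54% were called lower in the polysomal pool. In the sub-polysomal pool 2 of 8 passed, Scd2 and Elovl6, beside 10.8% of all genes, with a median of -0.0035 beside 0.05 for all genes tested.

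Scd2, a stearoyl-CoA desaturase that puts the first double bond into saturated fatty acids (chr19:44381024-44381083, plus strand, mm9), had the largest difference of the 33 genes. Its mean log2 intensities were 13.12, 13.03, 12.89 and 13.31 in WT and 11.83, 11.56, 9.74 and 10.65 in Lck-/-. Every Lck-/- extract lay below WT, and the Lck-/- extracts differed widely among themselves (SD 0.95, against 0.17 in WT). It was 4.43-fold lower (difference -2.15, SE 0.37, limma adjusted p = 0.00398), with -2.40 in the polysomal pool and -1.90 in the sub-polysomal pool.

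Scd1, the paralogue of Scd2, was dim. Its polysomal log2 intensities were 7.46, 7.49, 8.04 and 7.72 in WT and 6.57, 6.45, 6.21 and 6.22 in Lck-/-, without overlap (difference -1.31, SE 0.17, limma adjusted p = 0.00193). The signal was well above background on 7 of 8 WT arrays and 1 of 8 Lck-/- arrays, so Scd1 entered the test through WT alone, and with Lck-/- near background the size of the difference is not measured. Signal on the probe could also come from a close paralogue, which was not tested.

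Fads2, the desaturase that starts the making of long polyunsaturated fatty acids, was also dim, well above background in the polysomal pool on 7 of 8 WT arrays and 1 of 8 Lck-/- arrays. It had 7.26, 7.01, 7.69 and 7.38 in WT and 6.55, 6.69, 6.55 and 6.34 in Lck-/-, again without overlap (difference -0.80, SE 0.17, limma adjusted p = 0.0120). The same limit holds for it as for Scd1. In the sub-polysomal pool Fads2 was above background on 0 Lck-/- arrays and 2 WT arrays and was not tested. Fads1, which acts after Fads2, did not pass, with a mean difference of -0.35 (SE 0.21).

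Elovl6, the elongase that extends saturated chains made by fatty acid synthase (chr3:129341250-129341310, plus strand, mm9), had mean log2 intensities of 9.89, 9.80, 10.10 and 10.11 in WT and 9.57, 9.49, 9.14 and 9.09 in Lck-/-. The groups did not overlap and differed by -0.65 (SE 0.15, limma adjusted p = 0.0119). Its sub-polysomal call (difference -0.60, adjusted p = 0.0440) was lost on leaving out WT replicates 2, 3 or 4 or Lck-/- replicates 2, 3 or 4, one at a time, and its adjusted p reached 0.48 over all settings. It was also lost with the swaps crossed, and Elovl6 passed in this pool under 9 of 25 settings.

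Genes that make and join the first units did not pass in any level. Acly, which supplies cytosolic acetyl-CoA from citrate, differed by -0.01 (SE 0.15) in the mean of both pools. Acaca, the carboxylase that makes malonyl-CoA, differed by 0.22 (SE 0.15), and its second probe at full detection gave 0.27. Fasn, fatty acid synthase, missed the ratio filter and had 8.12, 8.05, 8.13 and 8.0 in WT and 8.57, 8.23, 8.04 and 8.51 in Lck-/-, overlapping groups with a difference of 0.26 (SE 0.14, limma adjusted p = 0.201). Elovl5, an elongase of polyunsaturated chains, differed by -0.14 (SE 0.12).

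Genes of sterol sensing and transport did not pass in any level. Insig1 and Insig2 hold SREBP and its escort Scap in the endoplasmic reticulum when sterols are plentiful. Insig1 differed by -0.63 (SE 0.25, limma adjusted p = 0.0941) in the mean of both pools and Insig2 by -0.11 (SE 0.15). Scap had 11.64, 11.55, 11.69 and 11.73 in WT and 11.93, 11.86, 11.91 and 12.06 in Lck-/-, higher in each Lck-/- extract than in any WT extract, with a difference of 0.29 (SE 0.11, limma adjusted p = 0.0884). Srebf2, which encodes SREBP-2, differed by 0.13 (SE 0.13) and Stard4, a carrier of sterol between membranes, by -0.47 (SE 0.22). Srebf1, which encodes SREBP-1, was tested in the polysomal pool alone, with 7.61, 7.58, 7.57 and 7.71 in WT and 6.99, 7.66, 7.14 and 7.16 in Lck-/-. Replicate 2 of Lck-/- lay within the WT values, and the difference was -0.38 (SE 0.17, limma adjusted p = 0.142).

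Probes of the same gene did not always give the same answer. For Elovl1, an elongase of saturated very long chains, the brightest probe differed by -0.07 in the mean of both pools, and a second probe, well above background on all arrays, differed by -0.91 without overlap of the genotypes. Averaging both gave -0.49 (SE 0.13, limma adjusted p = 0.0242). A second probe of Stard4 differed by -0.81, against -0.47 for the brightest, and the average of both probes passed (-0.64, adjusted p = 0.0131). A second probe of Hsd17b7 differed by -0.65 against -0.03, and the average did not pass (adjusted p = 0.185). For Pmvk the second probe differed by -0.36, and the average no longer passed (-0.47, adjusted p = 0.0880). The array files do not say which transcript each of these probes detects.

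Sterol enzymes differed more between the genotypes than fatty acid genes in each level, as a description without a test. The difference of the 2 group medians was -0.38 in the mean of both pools, -0.29 in the polysomal pool and -0.37 in the sub-polysomal pool. When each extract was set against the WT mean, the median of the sterol enzymes in the mean of both pools was -0.38, -0.38, -0.72 and -0.47 in the Lck-/- extracts and -0.04 to 0.03 in WT. The same median for fatty acid genes was -0.06, -0.18, -0.22 and -0.12 in Lck-/- and -0.04 to 0.08 in WT. All genes tested had medians of -0.05 to 0.09 in the Lck-/- extracts. Probe choice bears on this comparison: with all probes of a gene averaged, the difference of the medians was -0.18 in the mean of both pools and -0.03 in the polysomal pool.

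**Figure D3:**
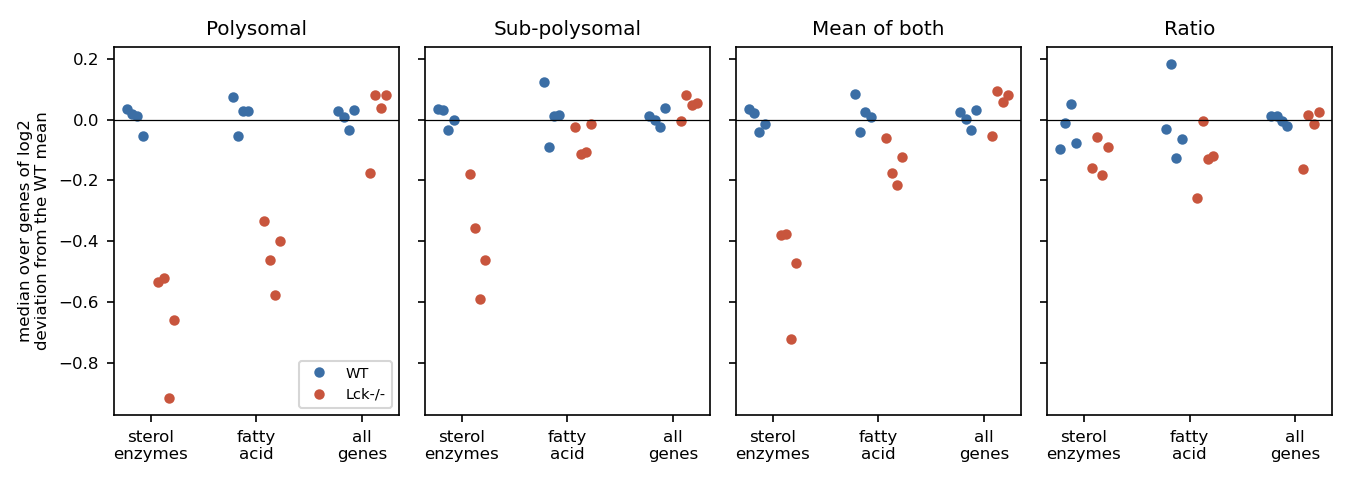
Median over the tested genes of each group of the log2 deviation from the WT mean, for each extract (blue WT, red Lck-/-), in the polysomal pool, the sub-polysomal pool, their mean and the ratio. Sterol enzymes lie between -0.38 and -0.72 in the Lck-/- extracts in the mean of both pools, fatty acid genes between -0.06 and -0.22, and all genes near 0.

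In the mean of both pools 10 of the 29 genes tested passed as lower with the arrays as labelled, 10 with the swaps crossed, and 7 with both extracts left out, when Pmvk, Mvd and Cyp51 missed the threshold. Of all genes 11.2%, 10.1% and 5.68% were called lower in the same settings. The median difference of the sterol enzymes was -0.48 on slide 1 alone and -0.47 on slide 2 alone. Each slide had 10 or more of the 29 genes called lower, beside 7.9% and 8.97% of all genes. Mvd also missed the threshold on the arrays with the polysomal pool in Cy3. Fdps, Fdft1, Lss, Tm7sf2, Dhcr7, Scd2 and Elovl6 passed in the mean under every setting in which they were tested. The polysomal count was less stable, with 13 genes as labelled, 11 crossed, 6 with both extracts left out, 3 on slide 1 alone and 14 on slide 2 alone. The share of all genes called lower there moved alike, at 9.24%, 4.73%, 1.96%, 1.14% and 10.1% in the same order. Among the polysomal calls, Pmvk was lost without WT replicate 2 or 3 or Lck-/- replicate 3 or 4, with an adjusted p of up to 0.13 over all settings. Mvd was lost without any of those or WT replicate 1, and with the swaps crossed, with an adjusted p of up to 0.25. The sub-polysomal count was 9 as labelled, 8 crossed, 7 with both extracts left out, 10 on slide 1 alone and 5 on slide 2 alone. Of all genes 10.8%, 6.68%, 6.91%, 12.7% and 2.04% were called lower there, in the same order. Pmvk and Mvd passed in the sub-polysomal pool under 17 and 18 of 25 settings.

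The share of mRNA on polysomes was compared through the ratio, and none of the 26 tested genes passed between genotypes, beside 3.86% of all 8263 genes (1.05% lower and 2.81% higher). Of the 26 differences 21 were below 0, as were 55.8% of those of all genes. The median was -0.13 for sterol enzymes, -0.05 for sensing and transport and -0.11 for fatty acid genes, against -0.04 for all genes tested. Idi1 had the lowest limma adjusted p, at 0.0908.

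The 4 largest differences in the ratio were below 0 and did not pass. Scd2 had ratios of 0.71, 0.92, 0.46 and 0.24 in WT and -0.04, 0.30, -0.11 and 0.19 in Lck-/-, which overlap (difference -0.50, SE 0.17, limma adjusted p = 0.132). Idi1 had 0.31, 0.46, 0.37 and 0.50 in WT and 0.10, 0.16, -0.18 and -0.35 in Lck-/- (difference -0.48, SE 0.14). Cyp51 had 1.04, 1.04, 0.90 and 0.81 in WT and 0.25, 0.54, 0.74 and 0.63 in Lck-/- (difference -0.41, SE 0.14, limma adjusted p = 0.131). Sc5d, a desaturase of the sterol ring, had 0.16, 0.25, 0.46 and 0.37 in WT and 0.13, -0.19, -0.12 and -0.12 in Lck-/- (difference -0.39, SE 0.12, limma adjusted p = 0.120). Idi1, Cyp51 and Sc5d were the 3 genes whose extracts did not overlap, beside 14.5% of all genes. Idi1 passed without Lck-/- replicate 2 (adjusted p = 0.0488) and with slide and dye as terms (adjusted p = 0.0421).

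**Figure D4:**
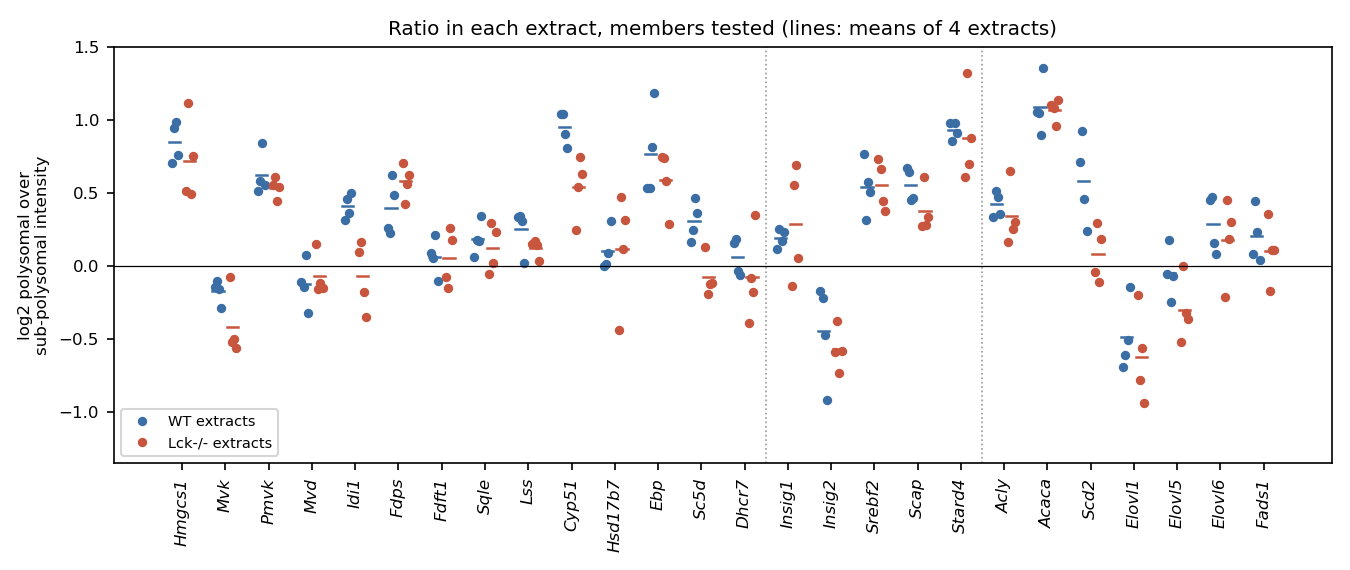
Log2 ratio of polysomal over sub-polysomal intensity in each extract for the 26 genes tested (blue WT, red Lck-/-; lines are means of 4 extracts), with dotted lines between sterol enzymes, sensing and transport, and fatty acid genes. Acaca, Cyp51, Stard4 and Hmgcs1 lie high in WT, Insig2 and Elovl1 lie below 0, and the genotypes separate for Idi1, Cyp51 and Sc5d.

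Set against the typical mRNA of the array, more of these mRNAs lay towards the polysomes than away from them. In WT the ratio passed as above 0 for 15 of the 26 and as below 0 for 2, beside 33.5% and 28.7% of all genes, and in Lck-/- for 10 and 4, beside 26.9% and 29.2%. The WT counts were 11 above and 2 below with the swaps crossed, and 10 above and 1 below without WT replicates 1 and 2. The shares of all genes called against 0 in these settings are not given, so these counts cannot be set against them. Acaca had the highest WT ratio among the fatty acid genes, with 1.06, 1.04, 0.90 and 1.35 in WT and 1.10, 1.08, 0.96 and 1.14 in Lck-/-, groups that overlap. Cyp51, with the values above, was highest among the sterol enzymes. Stard4 was highest among sensing and transport genes, with 0.98, 0.85, 0.98 and 0.91 in WT and 0.61, 1.32, 0.70 and 0.88 in Lck-/-.

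Among the 26 genes tested, the lowest WT ratios of the 3 groups belonged to Mvk, Insig2 and Elovl1. Mvk had -0.14, -0.10, -0.15 and -0.29 in WT and -0.08, -0.52, -0.50 and -0.56 in Lck-/-, with 1 Lck-/- extract above all WT values and 3 below them. Insig2 had -0.17, -0.22, -0.47 and -0.92 in WT and -0.59, -0.38, -0.73 and -0.58 in Lck-/-. Elovl1 had -0.69, -0.61, -0.50 and -0.14 in WT and -0.20, -0.78, -0.56 and -0.94 in Lck-/-. Both genes overlapped between the genotypes. Insig2 and Elovl1 were the 2 that passed below 0 in WT, and both passed below 0 in Lck-/- with Mvk and Elovl5.

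The size of the ratio differences depends on how arrays are scaled. Loess brings the ratio of a typical mRNA near 0 on each array, in both genotypes. In an alternative, each array was centred on the median of its spots, dim ones included but controls and outlier spots left out. The median over all tested genes then differed by -0.78 between the genotypes, that of the sterol enzymes by -1.04 and that of the fatty acid genes by -1.12. In this setting 21 of the 26 genes passed as lower, with 56.3% of all genes. With the authors' deposited ratios the median differed by -1.15 over all genes, -1.41 over sterol enzymes and -1.52 over fatty acid genes. All 26 genes were called lower there, beside 90% of all 8252 genes. After centring the columns of the authors' deposited table, 1 of the 26 passed, Idi1 (-0.68, limma adjusted p = 0.0196). Of all 8252 genes 3.48% were then called lower. The statement that none of these ratios passed therefore refers to loading relative to the typical mRNA of the same array. Centring on the median of the spots left the mean of both pools unchanged, by construction. It gave 23 of the 33 genes lower in the polysomal pool, beside 20.9% of all genes, around a median over all genes of -0.31. In the sub-polysomal pool it gave 6 genes higher and 6 lower, with 326 of all 9703 genes lower (3.36%) and 3572 higher.

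Other genes of the same pathways, from lists chosen with earlier results known, were read against the shares of all genes given above. Of 12 tested genes of sterol and isoprenoid synthesis outside the 33, 1 was called lower and 1 higher (8.33% each) in the mean of both pools, beside 11.2% and 10.2% of all genes. The polysomal pool also had 1 of each, beside 9.24% and 5.98%. Cyb5r3, a reductase that feeds electrons to sterol and fatty acid desaturation, fell by 0.66 (SE 0.15, limma adjusted p = 0.0112), and Dhdds, of dolichol synthesis, rose by 0.50 (SE 0.14, limma adjusted p = 0.0278). In the polysomal pool Cyb5r3 fell by 1.04 and Nus1, the partner of Dhdds, rose by 0.50. Cyb5r3 was also the single gene of all these lists called in the ratio, at -0.76 (SE 0.17, adjusted p = 0.0343).

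Of 21 tested other fatty acid genes 4 were called lower in the mean of both pools (19%) and 0 higher, beside 11.2% and 10.2% of all genes, with a median of 0.03. Tecr and Hacd2, which complete each round of elongation after the elongase, fell by 1.37 (SE 0.22, limma adjusted p = 0.00297) and 1.07 (SE 0.21, limma adjusted p = 0.00627). Fabp5, a fatty acid binding protein, fell by 1.03 (adjusted p = 0.00947), and Hacd1, a relative of Hacd2, fell by 0.77 (adjusted p = 0.0145). The polysomal pool had 5 of 24 lower (20.8%) and 0 higher, beside 9.24% and 5.98% of all genes, with Tecr at -1.57. In the sub-polysomal pool 4 of 23 were lower (17.4%) and 2 higher (8.7%), beside 10.8% and 9.49% of all genes. The 2 were Acsl4, which activates long-chain fatty acids, and Hacd3, which rose by 0.52 and 0.49.

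Of 7 genes of SREBP processing 1 was called lower and 1 higher in the mean of both pools (14.3% each), beside 11.2% and 10.2% of all genes. Mbtps1, the protease that makes the first cut in SREBP, rose by 0.43 (SE 0.12, limma adjusted p = 0.0254) in the mean, and its polysomal difference did not pass (adjusted p = 0.0623). Ubxn8 fell by 0.52 (SE 0.16, limma adjusted p = 0.0394) in the mean, and its sub-polysomal difference did not pass (adjusted p = 0.117). Of 8 tested genes of sterol uptake, efflux and storage 2 were called lower in the mean of both pools (25%), beside 11.2% of all genes. They were Abcg1, which exports sterol (-0.77, adjusted p = 0.0472), and Npc2, which carries cholesterol out of the lysosome (-0.45, adjusted p = 0.0489). In the polysomal pool 0 of 12 genes of this list passed and in the sub-polysomal pool 0 of 11.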

How the data were processed

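RNA of both pools was measured on 16 two-colour arrays. The deposited scanner files carry, per the file headers, spot intensity from Agilent Feature Extraction 10.7.3.1 and mm9 probe positions, and the deposited flags of unit other mark spots above background, saturated spots and outliers. The authors' deposited table holds log2 ratios with dye swaps combined, with centring not stated, and limma is named without a version in the submitters' processing notes.

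Mean intensity was corrected with normexp (offset 50), normalised by loess within arrays and Aquantile between arrays (limma 3.58.1, R 4.3.3), and averaged over the 2 arrays of an extract. Models of limma with Benjamini-Hochberg adjustment compared 4 extracts with 4, over all genes tested. The fit was tested on simulated data. The number of extracts limits the precision. Of 55681 probes, 24300 without a gene in RefSeq were left out.

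Members and lists were chosen with earlier results of these data known. Genes are named with values per extract if they passed in a genotype comparison, had the highest or lowest WT ratio of their group or missed the filter, and other pathway genes if called, at most 4 per direction. Ubxn8, Abcg1 and Npc2 fall outside this rule and were named after their values were seen, as were the promoter stretches, chosen for genes called lower. Same-numbered extracts of the 2 genotypes correlated at 0.06, -0.17, 0.26 and -0.24 in the ratio. In the mean of both pools the values were -0.07, -0.09, 0.43 and -0.20, and in the polysomal level -0.04, 0.05, 0.47 and -0.13. The labels do not say that a number marks a pair, so the main fit did not pair the extracts. Whether they are pairs is not settled by these values. Alternatives changed background correction, normalization, filter, probe, dye, slide, variance model, extracts, replicate block and source.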

Additional observations from a re-analysis of the deposited data

Results flagged for a closer look

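In 176 sets of 4 extracts, 1 value was checked for standing apart from the other 3 by Dixon's gap test, over the ratio, polysomal and sub-polysomal values of the tested genes. There were 8 such values, of which chance gives about 5% of the sets. In the ratio, Lck-/- replicate 1 stood above the other Lck-/- extracts for Mvk, at -0.077 against -0.56 to -0.50, and for Mvd, at 0.15 against -0.15 to -0.12. WT replicate 4 stood below the others for Lss, at 0.023 against 0.31 to 0.35. In the polysomal pool Acly was 14.18 in Lck-/- replicate 2 against 13.37 to 13.50, and Scd2 was 13.12 in WT replicate 3 against 13.43 to 13.49. In the sub-polysomal pool Lck-/- replicate 1 had 11.16 for Fdps against 11.03 to 11.04, and 9.42 for Insig2 against 9.67 in each of the other 3. WT replicate 4 had 10.55 for Acaca against 11.16 to 11.19. Of the 8 values 4 were in Lck-/- replicate 1.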

How the results depend on the processing

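A change of sign counted as a reversal only where the difference passed with the main settings or the alternative, and no cause was tested. The numbers of all genes called in the ratio, the mean of both pools, the polysomal and the sub-polysomal level were 319, 1943, 1566 and 1965, and those of the 33 members 0, 10, 13 and 9. Leaving out 1 extract gave 103 to 443, 1010 to 2353, 710 to 2507 and 1061 to 1999 genes and 0 to 1, 10 to 11, 10 to 17 and 8 to 11 members, with 14 to 18 member ratios called against 0 in WT and 13 to 16 in Lck-/-. The replicate block, the labelled number as a factor, gave 180 genes in the ratio, 1155 in the sub-polysomal level and 0, 10, 13 and 9 members, and the block with crossed dye swaps gave 22, 1241, 426 and 420 genes and 8 polysomal and 5 sub-polysomal members. Crossed dye swaps alone gave 41 genes in the ratio, 696 polysomal and 1107 sub-polysomal. Without WT replicates 1 and 2 there were 86, 826, 246 and 1100 genes, 6 polysomal members and 11 member ratios against 0 in WT. Counts of member ratios against 0 under the alternatives stand here without a share of all genes, so they are not read against one.

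Arrays with the polysomal pool in Cy5 gave 36, 999, 140 and 755 genes, 8 polysomal members, and 9 and 8 member ratios against 0 in WT and Lck-/-. Those with it in Cy3 gave 30, 940, 338 and 499 genes and 7 polysomal members. Slide 1 alone gave 1239 genes in the mean, 149 polysomal and 3 polysomal members, and slide 2 alone 68 genes in the ratio, 276 sub-polysomal and 5 sub-polysomal members. Slide and dye terms gave 1 member in the ratio. Processed signals gave 177 genes in the ratio and no detection filter 204. Detection on all 16 arrays left 7 polysomal members called lower, with fewer members tested, beside 8.05% of all genes called lower.

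Median centring gave 4686 genes and 21 members in the ratio, 26 and 9 member ratios against 0 in WT and Lck-/-, 23 polysomal members and 3898 sub-polysomal genes. No normalization within arrays gave 5980 genes and 25 members in the ratio, 26 member ratios in WT, 2920 genes and 25 members polysomal and 3986 genes sub-polysomal. The authors' deposited ratios gave 7452 genes and 26 members, 26 of them above 0 in WT, and after centring 731 genes and 1 member. Of the calls in the ratio 27.3% were lower with the main settings, against 99.3% with median centring. The ratio of Fdps reversed to -0.73 with median centring, -0.73 with no normalization and -1.11 in the authors' deposited table. With no normalization and in the authors' deposited table it reversed for Mvd (-0.69 and -1.06), Insig1 (-0.70 and -0.85) and Srebf2 (-0.70 and -1.08), and in that table also for Hsd17b7 (-0.89). The sub-polysomal level of Elovl1 reversed to -0.38 with all probes averaged.

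The difference of the sterol and fatty acid medians was -0.18 (mean), -0.029 (polysomal) and -0.21 (sub-polysomal) with all probes averaged, -0.22 (mean) and -0.24 (sub-polysomal) with detection on all arrays, -0.28 (mean) and -0.17 (polysomal) with the sensing genes added, -0.23 (sub-polysomal) on slide 2 and 0.11 in the ratio from the authors' deposited table. Leaving out 1 extract it spanned -0.40 to -0.29 (mean), -0.34 to -0.21 (polysomal), -0.46 to -0.26 (sub-polysomal) and -0.049 to 0.10 (ratio). Signal over background limits Scd1, Fads2, Nsdhl and Srebf1, which were tested in the polysomal pool alone.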
